A study of Rattus norvegicus with 15 samples.

Results

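The molar germs of rat embryos at E15 and at E17 were compared across all measured genes, with emphasis on genes that stand in none of the categories of tooth mutants used in the study. The comparison holds the 10 libraries labelled E15 or E17, of 15 libraries in the series, with 5 single-tooth libraries at each stage. Both groups were wild type DA/HanRj rats without treatment, dissected at E15.5 and E17.5, which the study equates with the bud and the cap stage of the mouse molar. Each library was made from the whole germ of a first molar, with a little adjoining tissue, so it mixes epithelium, mesenchyme and other cells. The E17 replicates 1 and 2 are the left and the right tooth of 1 embryo, and all E15 libraries carry 1 title code and all E17 libraries another, so that stage cannot be told apart from a litter or preparation that follows these codes.

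A molar begins as an epithelial bud surrounded by condensed neural crest mesenchyme. During the passage to the cap stage the epithelium folds around the mesenchyme, and a signalling centre at the tip of the bud, the primary enamel knot, starts to secrete ligands of the Hedgehog, Wnt, FGF and BMP families. Each of these pathways also induces its own inhibitors and receptors, and the transcripts of such feedback genes are widely used as readouts of signalling.

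Total counts were between 12843183 and 26516722 per library in the table of rat genes. E15 replicate 3 stood apart: the median over genes of its absolute deviation from the other E15 libraries was 0.261 on the log2 scale, whereas the other 9 libraries lay between 0.0904 and 0.163 from those of their own stage. Chi-square per gene was between 46.1 and 66.1 for pairs with this library and between 6.74 and 17.8 for all other pairs within a stage, and even the lowest of these is far above sampling noise. The share of counts held by the 10 most abundant genes did not separate the stages (5.66 ± 1.31% at E15 and 6.11 ± 0.48% at E17, SD, n = 5, two-sided exact permutation test, p = 0.516, adjusted over 3 library measures p = 0.774).

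More genes rose than fell, and the rises were larger. Of 14300 rat genes with enough counts to be tested, 2749 were called at an adjusted p under 0.05 (edgeR quasi-likelihood test), which is 19.2% of those tested. Of these, 1714 genes (12.0%) were higher and 1035 (7.24%) lower at E17. A change of at least 2-fold was found for 553 of the genes that rose (3.87% of those tested) and for 90 of the genes that fell (0.629%). All 5 E17 libraries lay above all 5 E15 libraries in 1380 genes (9.65%) and below them in 923 (6.45%). The median rise was 1.64-fold and the median fall 1.27-fold, and 77.8% of the falls were smaller than 1.5-fold against 40.1% of the rises. At least 4-fold rises numbered 127 and at least 4-fold falls 10, and 16 genes rose by 16-fold or more whereas none fell by as much. The median log2 fold change of all tested genes was -0.01. In such whole-germ libraries more cells of a type and more RNA per cell cannot be told apart.

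**Figure D1:**
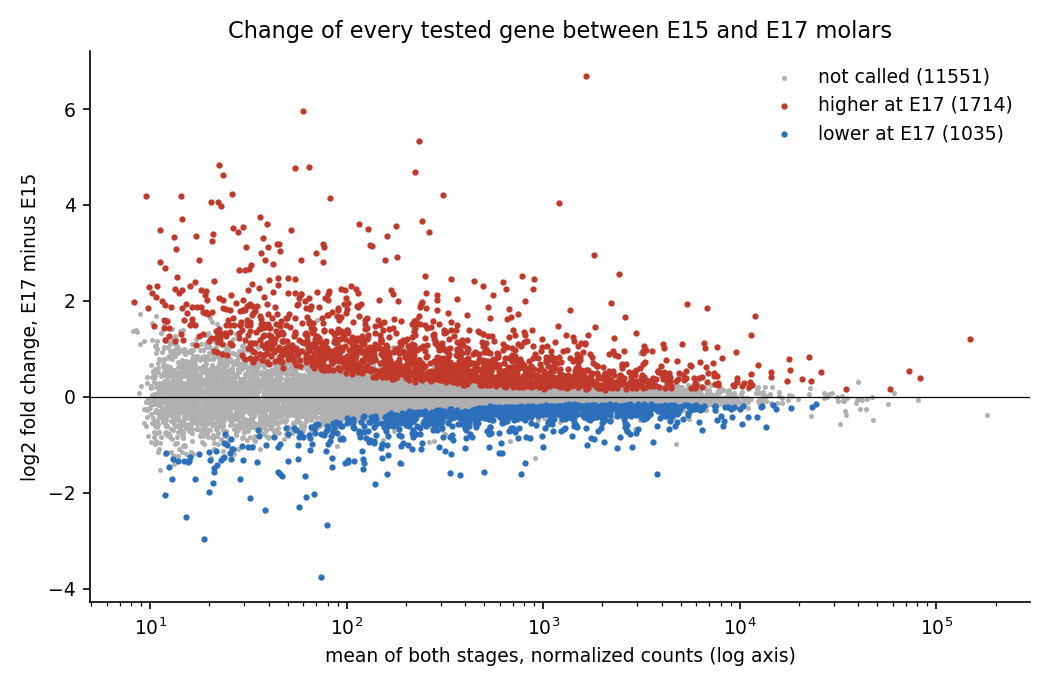
Log2 fold change (E17 minus E15, vertical axis) of the 14300 tested rat genes against the mean of both stages in normalized counts (horizontal log axis). The 1714 genes higher at E17 (red) reach 6.69 on the log2 scale, the 1035 lower genes (blue) fall by up to 3.77, and the 11551 genes not called are grey.

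Very few genes went from absence to presence. No gene had 0 counts in every E15 library and at least 10 in every E17 library, and none showed the opposite pattern. With up to 3 counts allowed at the absent stage, 3 genes appeared at E17 and 0 disappeared. Where a library shows 0, a true level of 3 counts is still possible from counting error alone, equal to 0.113 CPM (counts scaled to the library total) in the deepest library and 0.234 CPM in the shallowest.

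The balance between rises and falls depended on abundance. Among 3437 genes with a mean of 10 to 100 normalized counts, 13.3% were higher and 2.88% lower, and the called rises had a median log2 fold change of 1.29. Among 7223 genes with 100 to 1000 normalized counts, 12.0% were higher and 6.63% lower. The order turned among 3494 genes with 1000 to 10000 normalized counts, of which 10.4% were higher and 12.7% lower, with median changes of 0.39 and -0.26. Among 118 genes above 10000 normalized counts 19.5% were higher and 11.0% lower. The median standard error fell from 0.30 in the least abundant of these 4 classes to 0.06 in the most abundant, so smaller changes could be called among abundant genes.

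**Figure D2:**
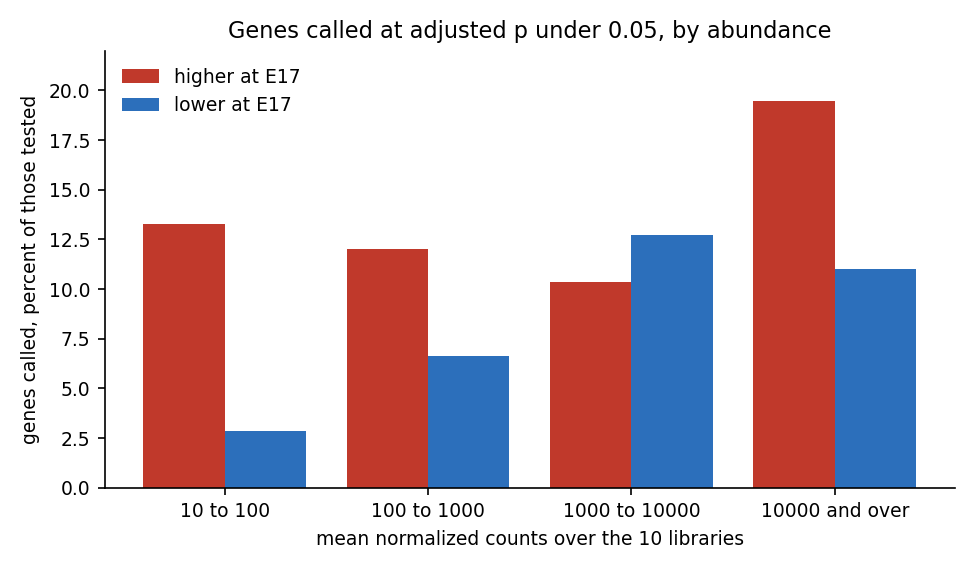
Percent of tested rat genes called higher (red) or lower (blue) at E17 in 4 classes of mean normalized counts over the 10 libraries. Higher genes exceed lower genes in each class except that of 1000 to 10000 normalized counts, where 10.4% are higher and 12.7% lower.

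The called genes took a different portion of the libraries at each stage, a description since the genes were selected on these libraries. Genes called higher held 9.42 to 11.7% of the counts at E15 and 15.3 to 16.7% at E17. Genes called lower held 11.5 to 12.6% at E15 and 9.08 to 9.65% at E17. Genes with at least 2-fold rises held 1.43% of the counts at E15 (median of 5) and 3.30% at E17.

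The E15 teeth differed among themselves more than the E17 teeth did, through 1 library. The median standard deviation of a gene on the log2 CPM scale was 0.204 at E15 and 0.148 at E17, a ratio of 1.38, and 69.5% of the genes varied more at E15. Without E15 replicate 3 the ratio was 0.993 and 51.0% of the genes varied more at E15. The deviation of each library from those of its stage averaged 0.167 ± 0.055 at E15 and 0.121 ± 0.023 at E17 (SD, n = 5). A two-sided exact permutation test gave p = 0.0635 (adjusted over 3 library measures p = 0.19, smallest p the design allows 0.00794). Each deviation was taken against the other libraries of its stage, so the values depend on one another and this test cannot decide. With E15 replicate 3 left out of the test of all genes, 3163 genes were called in place of 2749, and 2541 of the 2749 were among them.

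Symbols were known for 356 genes of the second table, which holds counts under mouse identifiers, and named genes are therefore given from it as counts divided by the size factor of the library (normalized counts). Of the 12627 genes tested there, 2315 were called (18.3%), with 1429 higher (11.3%), 886 lower (7.02%), 438 at least 2-fold higher (3.47%) and 69 at least 2-fold lower (0.546%), and in 1180 genes (9.35%) all E17 libraries lay above all E15 libraries, in 863 (6.83%) below. Genes with no symbol made up 12278 of those tested, and 1339 of them were higher and 858 lower. The study lists 213 genes of 6 signalling pathways that belong to none of its mutant categories, and 183 of these were tested. Of the 183, 25 were higher and 11 lower, a share of 19.7% beside 18.3% of all genes, and their median log2 fold change was 0.00. By role, 12 of 32 ligands were called (9 higher, 3 lower), 4 of 20 receptors (4 higher), 12 of 106 intracellular components (9 higher, 3 lower) and 8 of 25 transcription factors (3 higher, 5 lower). By pathway, 2 of 32 Hedgehog, 11 of 51 Wnt, 11 of 45 FGF, 7 of 40 TGF-beta, 6 of 25 Notch and 0 of 12 EDA genes were called, with some genes listed in more than 1 pathway. The 12 EDA genes had log2 fold changes from -0.21 to 0.24.

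**Figure D3:**
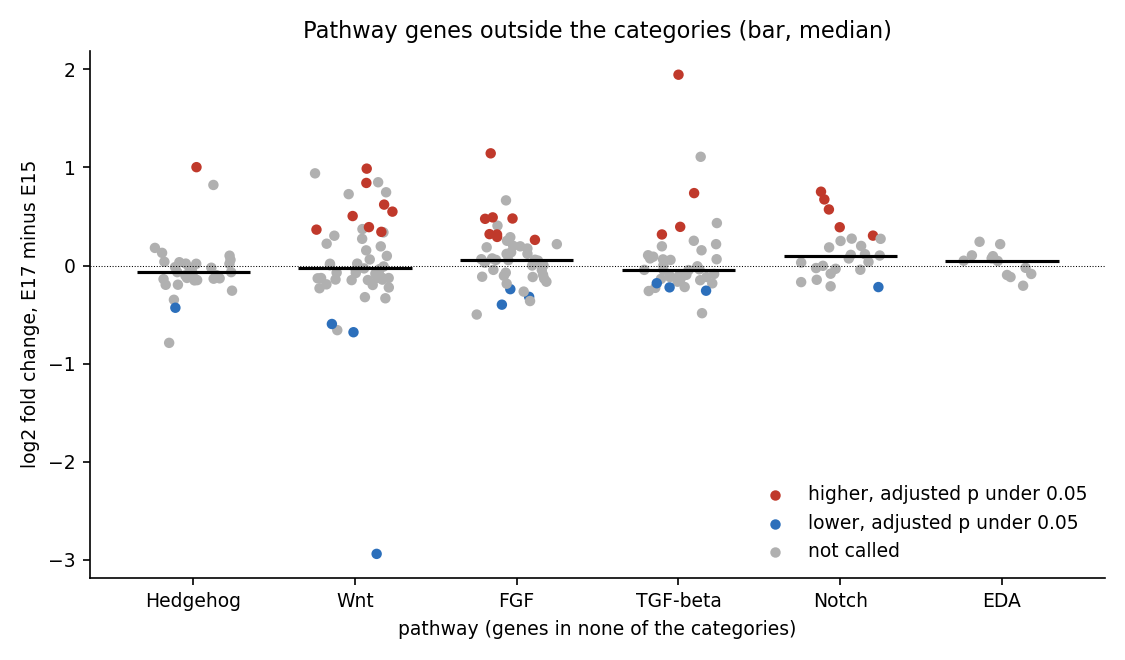
Log2 fold change (E17 minus E15, vertical axis) of the tested pathway genes outside the mutant categories, by pathway, with black bars for medians and 1 point per gene. Genes called higher are red and lower blue, and the lowest point is Wnt9b at -2.94.

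Hedgehog signalling showed changes at the receptor and the feedback genes, in 1 of 27 intracellular components outside the categories and in Gli3. Gli3, a transcription factor of the pathway in the double category, fell without overlap (log2 fold change -0.52 ± 0.09 (SE), edgeR adjusted p = 0.0019). Of 32 Hedgehog genes outside the categories, Ptch1 (ENSMUSG00000021466) rose, Kif3a fell and 30 were not called. The share called was 6.25%, beside 18.3% of all genes. Ptch1 encodes the Hedgehog receptor, which is itself induced by the pathway. Its normalized counts from replicate 1 to 5 were 3530, 3300, 4547, 5082 and 3953 at E15 and 7326, 8825, 8026, 8538 and 8019 at E17. Every E17 tooth was above every E15 tooth, and the means were 4082 ± 733 and 8147 ± 574 (SD, n = 5; log2 fold change 1.00 ± 0.11 (SE), edgeR adjusted p = 3.43e-05). This was the largest rise among the genes named by rule outside the categories.

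The promoter of Ptch1 is shown because the GLI factors that carry the Hedgehog signal bind sites near GACCACCCA. It is the RefSeq window from 250 bases before to 50 bases after the gene start on the plus strand of chr17:1555321-1555620 in build GRCr8, which is a later build than the Rnor_6.0 of the counts. The capitals mark the match to this motif, read here as its reverse complement TGGGTGGTC, which starts 172 bases before the gene start.
Ptch1: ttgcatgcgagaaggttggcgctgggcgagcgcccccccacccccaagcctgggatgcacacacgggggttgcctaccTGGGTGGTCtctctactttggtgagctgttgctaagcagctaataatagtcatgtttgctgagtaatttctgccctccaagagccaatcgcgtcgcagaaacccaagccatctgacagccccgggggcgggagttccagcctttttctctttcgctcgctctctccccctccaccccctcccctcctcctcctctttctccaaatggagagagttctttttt
On either strand the motif was found in 129 of 33469 promoter windows of the same length (0.385%). Of the genes described next, the window of Hhip held no match, and Gli1 was not matched in the promoter table. A match is a description of the letters and shows no binding.

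The list of Hedgehog target genes held 9 genes, of which 3 had a row and were tested, Ptch1 among them, and 3 of 3 were higher, beside 11.3% of all genes. Hhip, a membrane protein that binds and retains Hedgehog ligands, rose from 236 ± 41.2 to 451 ± 48.9 (SD, n = 5; log2 fold change 0.93 ± 0.12 (SE), edgeR adjusted p = 0.000185). Gli1, a transcription factor of the pathway, had 1387, 1297, 2668, 2486 and 1575 normalized counts at E15 and 2612, 3019, 3012, 3382 and 2916 at E17. E15 replicate 3 reached the E17 range (log2 fold change 0.67 ± 0.18 (SE), edgeR adjusted p = 0.0217), and without it the log2 fold change was 0.84 (edgeR adjusted p = 0.000921). The call of Gli1 was lost without E15 replicate 1, E15 replicate 5 or E17 replicate 4, at a highest adjusted p of 0.0547 (edgeR). Summed over the 3 genes, E15 libraries held 4858 to 7845 normalized counts and E17 libraries 10469 to 12348.

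Beside these readouts the ligand Shh, a progression gene, had 26.1, 1.09, 8.18, 46.4 and 0 normalized counts at E15 and 366, 384, 495, 478 and 365 at E17. The related ligands were not called, with 44.4 to 109 (E15) and 12.0 to 68.2 (E17) normalized counts for Ihh (edgeR adjusted p = 0.188) and 109.8 to 238 (E15) and 189 to 231 (E17) for Dhh (edgeR adjusted p = 0.508). The signal transducer Smo, a shape gene, had 3172 to 3392 normalized counts in E15 teeth and 3117 to 3663 in E17 teeth and was not called (log2 fold change 0.05 ± 0.05 (SE), edgeR adjusted p = 0.602). Kif3a, a motor subunit of the transport along primary cilia, in which the pathway operates, fell by 0.43 ± 0.10 on the log2 scale (edgeR adjusted p = 0.00949), with 714 to 1097 normalized counts in E15 teeth and 627 to 717 in E17 teeth, ranges that overlap. Kif3a was outside the rule for named genes, and so were Gli3, Inhbb, Wnt9b, Wnt2, Wnt4, Wnt5a, Wnt6, Fzd6, Lrp4, Fgf16, Fgf12, Egfr, Jak1, Smad1, Smad2, Smad3, Ihh, Dhh, Smo, Hes1, Nkd1, Tcf7, Lef1, Dkk4, Alpl, Aqp9 and Fgf4, which were chosen after their values were seen. Bmp2, Fgf9 and Dlx3, given below, were also outside the rule and chosen after their values were seen.

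**Figure D4:**
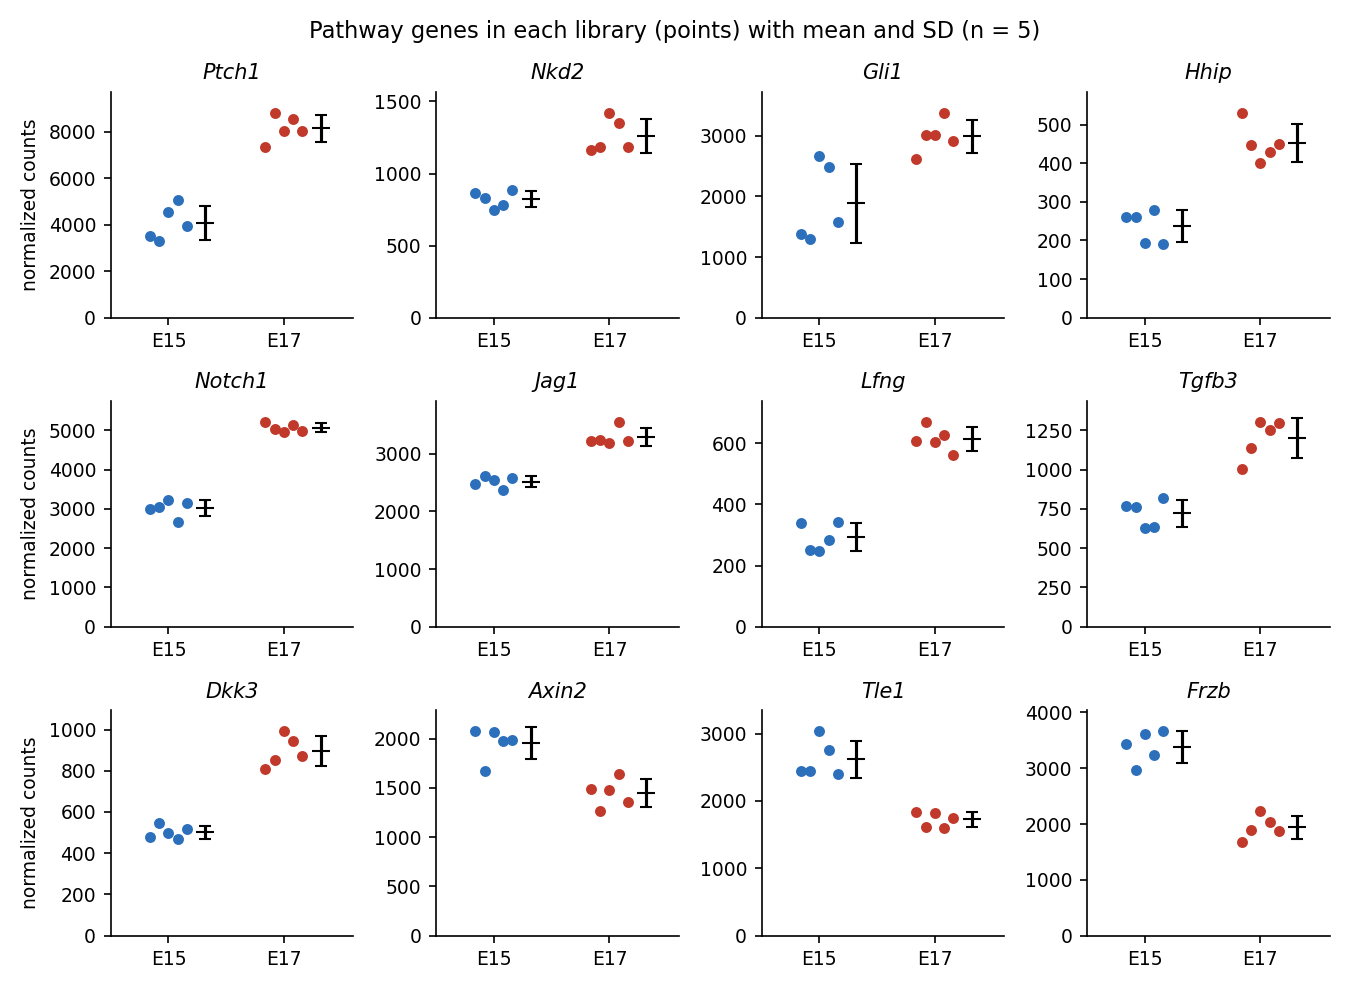
Normalized counts (vertical axes from 0) of 12 pathway genes in the 5 E15 (blue) and 5 E17 (red) libraries, with mean and SD in black beside the points. Gli1 is the only one of the 12 genes in which a library of E15 reaches the range of E17.

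In the Notch pathway 1 of 2 receptors and 2 of 3 ligands outside the categories rose. Of 12 tested members of the Notch list, 4 were higher and 0 lower, beside 11.3% and 7.02% of all genes, and their median log2 fold change was 0.26 against -0.01 over all genes. Notch1, a receptor that releases a transcriptional co-activator when a ligand on the next cell binds it, had 3005, 3038, 3214, 2674 and 3140 normalized counts at E15 and 5221, 5021, 4943, 5136 and 4974 at E17. The 5 E17 values lay close together and far above those of E15 (log2 fold change 0.75 ± 0.06 (SE), edgeR adjusted p = 2.64e-06). Jag1, a membrane-bound Notch ligand, rose from 2518 ± 94.8 to 3288 ± 154 (SD, n = 5; log2 fold change 0.39 ± 0.05 (SE), edgeR adjusted p = 0.000251), again without overlap. Lfng, a glycosyltransferase that alters which ligands Notch answers to, had 339, 251, 248, 283 and 342 normalized counts at E15 and 609, 671, 603, 627 and 563 at E17. This was a 2.1-fold rise with no overlap (log2 fold change 1.07 ± 0.10 (SE), edgeR adjusted p = 1.61e-05). Dll1, another ligand, had 42.4 to 63.3 normalized counts in E15 teeth and 67.3 to 93.1 in E17 teeth (log2 fold change 0.57 ± 0.18 (SE), edgeR adjusted p = 0.0434), and this call was lost under 11 of 18 alternatives, among them leaving out E15 replicate 3 (edgeR adjusted p = 0.0579).

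Neurl1a, a ubiquitin ligase that acts on Notch ligands, rose by 0.67 ± 0.19 on the log2 scale (edgeR adjusted p = 0.0266), from 87.7 ± 21.7 to 139.8 ± 22.4 normalized counts (SD, n = 5). Maml1, a co-activator of the Notch transcription complex, fell from 1790 ± 108 to 1530 ± 29.1 (log2 fold change -0.22 ± 0.06 (SE), edgeR adjusted p = 0.0144), a call lost in the fit of all 15 libraries of the series (edgeR adjusted p = 0.0592). The transcriptional target Hes1 had 476 to 678 normalized counts at E15 and 640.4 to 729.6 at E17 with overlap and was not called (log2 fold change 0.25 ± 0.10 (SE), edgeR adjusted p = 0.103). The call of Neurl1a was lost without E15 replicate 4 or E17 replicates 3, 4 or 5, at a highest adjusted p of 0.0703 (edgeR).

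Wnt ligands and inhibitors changed in both directions, and 0 of 7 Wnt receptors outside the categories were called. Within the categories, the receptors Fzd6 (dispensable, log2 fold change 0.54 ± 0.08 (SE), edgeR adjusted p = 0.000293) and Lrp4 (shape, log2 fold change 0.45 ± 0.07 (SE), edgeR adjusted p = 0.000944) rose without overlap. Of 14 Wnt ligands tested outside the categories, 4 were higher and 2 lower, beside 11.3% and 7.02% of all genes. The ligand Wnt10a, a shape gene given below, also rose. Wnt11 rose from 168 ± 17.9 to 246 ± 33.5 normalized counts (SD, n = 5; log2 fold change 0.55 ± 0.12 (SE), edgeR adjusted p = 0.00711), with no overlap. Wnt4 (log2 fold change 0.37 ± 0.07 (SE), edgeR adjusted p = 0.0025), Wnt5a (log2 fold change 0.39 ± 0.09 (SE), edgeR adjusted p = 0.00623) and Wnt6 (log2 fold change 0.34 ± 0.09 (SE), edgeR adjusted p = 0.016) rose by similar amounts, and the calls of Wnt11 and Wnt6 were lost in the fit of all 15 libraries, at adjusted p = 0.0524 and 0.0543 (edgeR). Wnt9b had 20.1, 39.3, 28.0, 33.0 and 43.6 normalized counts at E15 and 7.65, 2.26, 4.99, 2.14 and 3.31 at E17. All E17 teeth were below all E15 teeth in this scarce transcript (log2 fold change -2.94 ± 0.40 (SE), edgeR adjusted p = 0.000232). The range of Wnt2 was 103 to 156 normalized counts in E15 teeth and 64.2 to 112 in E17 teeth, with overlap (log2 fold change -0.68 ± 0.20 (SE), edgeR adjusted p = 0.0315), and its call was lost without E15 replicates 1, 2 or 4 or E17 replicates 1, 3 or 4.

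The secreted Wnt inhibitors divided. Of 9 tested members of the list of secreted Wnt antagonists, 3 were higher and 2 lower, beside 11.3% and 7.02% of all genes, with a median log2 fold change of 0.34. Dkk3, a member of the dickkopf family, had 478, 549, 498, 469 and 516 normalized counts at E15 and 811, 853, 995, 945 and 872 at E17, which did not overlap (log2 fold change 0.84 ± 0.07 (SE), edgeR adjusted p = 8.03e-06). Sfrp5, which binds Wnt ligands, had 175, 144, 52.6, 153 and 169.8 normalized counts at E15 and 240.4, 270.2, 307, 288 and 275 at E17. Its E15 replicate 3 was far below the other E15 teeth (log2 fold change 0.99 ± 0.23 (SE), edgeR adjusted p = 0.00952), and without that library the log2 fold change was 0.79 (edgeR adjusted p = 0.000142). Frzb, a related Wnt-binding protein in the dispensable category, moved the other way, from 3382 ± 292 to 1942 ± 209 (SD, n = 5; log2 fold change -0.79 ± 0.08 (SE), edgeR adjusted p = 3.09e-05), with all E17 teeth below all E15 teeth.

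E15 replicate 3 also stood apart in other secreted inhibitors. Sostdc1, a secreted inhibitor of Wnt and BMP signalling and a shape gene, had 1246, 1182, 3344, 1180 and 1454 normalized counts at E15 and 4008, 3566, 4511, 5040 and 3823 at E17. The value of E15 replicate 3 was close to the lowest E17 tooth, and the log2 fold change was 1.32 ± 0.26 with all libraries and 1.74 without this one (edgeR adjusted p = 0.00328 and 2.99e-08). Dkk4, a dickkopf inhibitor of the placode and enamel knot epithelium, had 137, 162, 0, 161 and 114 normalized counts at E15 and 134, 135, 141, 186 and 130.3 at E17. It was at 0 in E15 replicate 3 alone and was not called (log2 fold change 0.34 ± 0.53 (SE), edgeR adjusted p = 0.714).

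The feedback genes of the Wnt pathway did not share a direction. Of 7 tested, 2 were higher and 1 lower, beside 11.3% and 7.02% of all genes. Nkd2, which inhibits the pathway at Dishevelled, rose from 823 ± 56.8 to 1261 ± 117 normalized counts (SD, n = 5; log2 fold change 0.62 ± 0.07 (SE), edgeR adjusted p = 8.76e-05). Rnf43, a ubiquitin ligase that removes Wnt receptors from the membrane, rose from 190.3 ± 41.7 to 269.9 ± 29.2 (log2 fold change 0.50 ± 0.15 (SE), edgeR adjusted p = 0.0311), a call lost under 6 of 18 alternatives. Axin2, a scaffold of the complex that degrades beta-catenin and a dispensable gene, had 2081, 1670, 2062, 1973 and 1987 normalized counts at E15 and 1484, 1263, 1479, 1636 and 1360 at E17, with every E17 tooth below every E15 tooth (log2 fold change -0.43 ± 0.08 (SE), edgeR adjusted p = 0.00223). Tle1, a Groucho-type co-repressor, had 2451, 2441, 3046, 2757 and 2400 normalized counts at E15 and 1841, 1614, 1828, 1598 and 1745 at E17. This was the largest fall of a gene named by rule outside the categories (log2 fold change -0.60 ± 0.08 (SE), edgeR adjusted p = 0.000163), and it kept its call in all 18 alternatives.

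The promoter of Axin2 is shown as that of the Wnt feedback gene that fell, with CTTTGAT in capitals, the core letters of sites for TCF and LEF factors, 132 bases before the gene start. The window is the plus strand of chr10:94398535-94398834 in RefSeq build GRCr8.
Axin2: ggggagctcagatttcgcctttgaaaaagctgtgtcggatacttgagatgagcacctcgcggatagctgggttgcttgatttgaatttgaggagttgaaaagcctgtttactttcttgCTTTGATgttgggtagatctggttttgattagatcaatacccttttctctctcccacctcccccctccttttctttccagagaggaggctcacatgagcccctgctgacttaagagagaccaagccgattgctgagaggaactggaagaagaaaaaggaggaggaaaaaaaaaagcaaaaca
On either strand (reverse complement ATCAAAG) these letters were found in 1216 of 33469 windows (3.63%). The windows of Nkd1 and Tcf7 also held them, neither of which was called, and those of Nkd2, Rnf43 and Lef1 did not.

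Among TGF-beta genes outside the categories 2 of 7 ligands and 1 of 5 receptors were higher, beside 11.3% of all genes. Of 8 transcription factors 3 fell slightly, all of them Smad proteins, beside 7.02% of all genes. Smad1 (log2 fold change 0.09 ± 0.06 (SE), edgeR adjusted p = 0.357) and Smad2 (log2 fold change -0.11 ± 0.06 (SE), edgeR adjusted p = 0.272) were not called. Tgfb3, a ligand, had 769, 759.6, 629, 637 and 818 normalized counts at E15 and 1008, 1138, 1307, 1252 and 1299 at E17. The groups did not overlap (log2 fold change 0.74 ± 0.09 (SE), edgeR adjusted p = 0.000141). Inhbb, a subunit of activin and inhibin, was scarce, with 17.9, 10.9, 10.5, 9.28 and 15.6 at E15 and 40.4, 55.4, 44.9, 61.0 and 51.9 at E17, and rose 3.85-fold (log2 fold change 1.95 ± 0.27 (SE), edgeR adjusted p = 0.000261). Tgfbr2, the type II receptor for TGF-beta ligands, rose from 1253 ± 176 to 1640 ± 36.9 (SD, n = 5; log2 fold change 0.39 ± 0.08 (SE), edgeR adjusted p = 0.00509). Smad4, the shared partner of the receptor-activated Smad proteins, had 1788, 1783, 2130, 1890 and 1668 normalized counts at E15 and 1578, 1574, 1589, 1591 and 1386 at E17. It was lower in every E17 tooth (log2 fold change -0.26 ± 0.07 (SE), edgeR adjusted p = 0.025), and the call was lost without E15 replicate 4 or E17 replicate 5, the lowest tooth.

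Smad5, which carries BMP signals, fell from 2024 ± 161 to 1727 ± 31.2 normalized counts (SD, n = 5; log2 fold change -0.22 ± 0.06 (SE), edgeR adjusted p = 0.0205), a call lost without E17 replicate 3 or 5. Smad3, which carries TGF-beta and activin signals, ranged over 2220 to 2629 normalized counts in E15 teeth and 2052 to 2241 in E17 teeth with overlap (log2 fold change -0.18 ± 0.06 (SE), edgeR adjusted p = 0.0415), and its call was lost under 13 of 18 alternatives. Among 4 tested genes of the BMP feedback list, 1 was higher and 1 lower, beside 11.3% and 7.02% of all genes: the extracellular inhibitor Fst (log2 fold change 0.45 ± 0.10 (SE), edgeR adjusted p = 0.00588) rose, and the homeobox gene Msx1 fell by 0.42 ± 0.11 on the log2 scale (edgeR adjusted p = 0.0136).

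The FGF list of the study includes relatives of receptor tyrosine kinase signalling. Of its 8 tested transcription factors outside the categories, 3 were higher, all STAT factors, and 0 lower, beside 11.3% and 7.02% of all genes. The 8 had log2 fold changes from -0.07 to 0.66. Stat3 had 1645, 1459, 1743, 1548 and 1746 normalized counts at E15 and 2293, 2127, 2291, 2258 and 2335 at E17, without overlap (log2 fold change 0.48 ± 0.06 (SE), edgeR adjusted p = 0.000153). Stat5b rose from 659 ± 50.9 to 914 ± 33.9 (log2 fold change 0.48 ± 0.07 (SE), edgeR adjusted p = 0.000254) and Stat6 from 483 ± 39.3 to 677 ± 27.8 (SD, n = 5; log2 fold change 0.49 ± 0.07 (SE), edgeR adjusted p = 0.000389). Of the kinases upstream of these factors, Jak1 rose (log2 fold change 0.26 ± 0.06 (SE), edgeR adjusted p = 0.00557) and Jak2 fell (log2 fold change -0.32 ± 0.06 (SE), edgeR adjusted p = 0.00243). Both kinase calls were lost in the fit of all 15 libraries of the series, at adjusted p = 0.133 for Jak1 and 0.451 for Jak2 (edgeR). Egfr, the receptor for epidermal growth factor, rose from 1722 ± 169 to 2143 ± 127 (log2 fold change 0.32 ± 0.07 (SE), edgeR adjusted p = 0.00868).

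Of 6 tested FGF ligands outside the categories 1 was higher and 1 lower, beside 11.3% and 7.02% of all genes. Fgf16 rose, with 6.7 to 15.3 normalized counts in E15 teeth and 17.1 to 28.3 in E17 teeth (log2 fold change 1.14 ± 0.31 (SE), edgeR adjusted p = 0.0207), a call lost without E15 replicate 1 or E17 replicates 1 or 2. Fgf12, which acts inside cells, fell, with 324 to 451 normalized counts in E15 teeth and 262 to 328 in E17 teeth, which overlap (log2 fold change -0.40 ± 0.10 (SE), edgeR adjusted p = 0.017), a call lost in the fit of all 15 libraries (edgeR adjusted p = 0.343). Fgf4, a ligand of the enamel knot, was too scarce to be tested, with raw counts of 1, 0, 0, 4 and 6 at E15 and 12, 13, 24, 3 and 4 at E17. Frs2, the adaptor below FGF receptors, fell from 1664 ± 161 to 1402 ± 64.5 (SD, n = 5; log2 fold change -0.24 ± 0.07 (SE), edgeR adjusted p = 0.0305), a call lost under 7 of 18 alternatives.

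Most tested markers of the dental epithelium rose and several markers of the dental mesenchyme fell. Of 13 epithelial markers 8 had a row, and 6 of the 8 were higher and 0 lower, beside 11.3% and 7.02% of all genes, with a median log2 fold change of 1.25. Their summed normalized counts were 3633 to 7175 at E15 and 9539 to 12100 at E17, and Shh was the only one at 0 in a library (E15 replicate 5). Sostdc1, a member of these sums, alone rose from 1681 ± 936 to 4190 ± 588 (SD, n = 5). The markers Fgf9 (log2 fold change -0.50 ± 0.25 (SE), edgeR adjusted p = 0.194) and Dlx3 (log2 fold change 0.08 ± 0.21 (SE), edgeR adjusted p = 0.826) were not called. Sp6, a transcription factor of the dental epithelium, had 34.2, 27.3, 19.9, 37.1 and 30.2 normalized counts at E15 and 507, 512, 515, 608 and 575 at E17, which were far apart (log2 fold change 4.17 ± 0.14 (SE), edgeR adjusted p = 2.57e-09). The rises of Foxi3 (log2 fold change 2.06 ± 0.21 (SE), edgeR adjusted p = 2.34e-05) and Perp (log2 fold change 1.17 ± 0.13 (SE), edgeR adjusted p = 3.99e-05), an epithelial forkhead factor and a component of desmosomes, were also without overlap. The part of epithelial content in the rises of the pathway genes was not tested.

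Of 17 mesenchymal markers 13 had a row, with 2 higher and 4 lower, beside 11.3% and 7.02% of all genes, and a median log2 fold change of -0.21. Their summed normalized counts were 37729 to 42013 at E15 and 32250 to 34213 at E17. Lhx8, a LIM homeobox gene of the dental mesenchyme, had 4836, 4745, 4908, 5168 and 4666 normalized counts at E15 and 3388, 3164, 2765, 2795 and 3096 at E17, so that all E17 teeth were lower (log2 fold change -0.67 ± 0.06 (SE), edgeR adjusted p = 1.63e-05). Fgf10 (log2 fold change 0.41 ± 0.08 (SE), edgeR adjusted p = 0.00305) and Fgf3 (log2 fold change 5.72 ± 0.54 (SE), edgeR adjusted p = 1.63e-05), ligands of the dental papilla, went up. Fgf3 also stands in the list of enamel knot genes and is counted in both lists. The call of Fgf10 was lost in the fit of all 15 libraries (edgeR adjusted p = 0.201). Fgf3 was at 0 in E15 replicates 3, 4 and 5, and without E15 replicate 1 its log2 fold change was 6.34 (edgeR adjusted p = 6.49e-05). Among 11 tested homeobox genes 0 were higher and 4 lower, beside 11.3% and 7.02% of all genes, and the 4 were Lhx8, Msx1, Dlx6 (log2 fold change -0.46 ± 0.11 (SE), edgeR adjusted p = 0.00903) and Lhx6 (log2 fold change -0.34 ± 0.09 (SE), edgeR adjusted p = 0.0169). The call of Lhx6 was lost in the fit of all 15 libraries (edgeR adjusted p = 0.083).

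**Figure D5:**
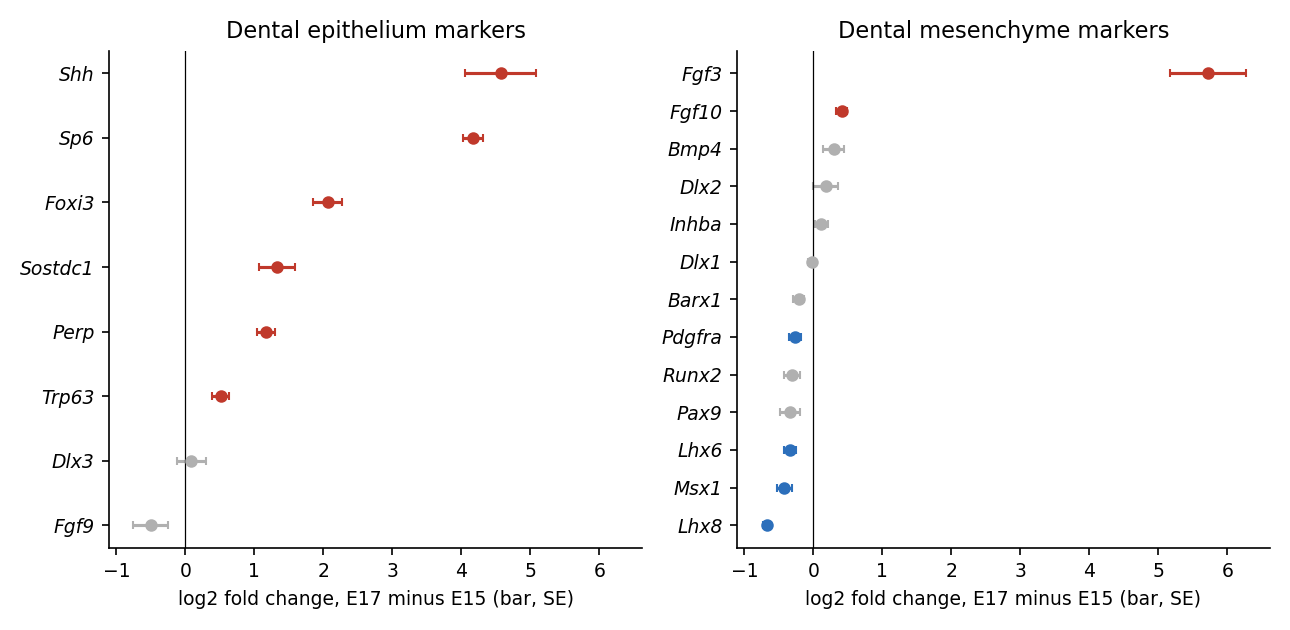
Log2 fold change (E17 minus E15, horizontal axis, bars for SE) of the tested markers of dental epithelium (left) and dental mesenchyme (right). Called genes are red (higher) or blue (lower) and the others grey, with 6 of 8 epithelial markers higher and 4 of 13 mesenchymal markers lower.

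The lists of basement membrane, matrix remodelling and mesenchymal matrix held 19, 27 and 25 genes. Only 3, 5 and 6 of these were tested, mostly genes of the dispensable category. Of those tested, 3 of 3, 5 of 5 and 3 of 6 were higher, beside 11.3% of all genes, and 0 were lower. The other 3 genes of mesenchymal matrix were not called. Of the 88 tested genes of the dispensable category, 39 were higher. Col4a1, the collagen chain of basement membranes, had 11575, 12149, 10683, 11374 and 12353 normalized counts at E15 and 16330, 17152, 15298, 16203 and 16857 at E17 (log2 fold change 0.50 ± 0.05 (SE), edgeR adjusted p = 4.34e-05). The laminin chain Lama2 rose from 3094 ± 290.4 to 4457 ± 204 (SD, n = 5; log2 fold change 0.53 ± 0.07 (SE), edgeR adjusted p = 0.000169), and Lama4 by less (log2 fold change 0.17 ± 0.05 (SE), edgeR adjusted p = 0.0448), a call lost under 13 of 18 alternatives. The list of basal epithelial adhesion held 30 genes, of which 3 were tested. All 3 were higher, beside 11.3% of all genes: Lama3 of hemidesmosomal laminin (log2 fold change 1.28 ± 0.12 (SE), edgeR adjusted p = 1.3e-05), Perp and the cadherin Cdh3 (log2 fold change 0.59 ± 0.15 (SE), edgeR adjusted p = 0.0146). The matrix proteoglycan gene Dcn (log2 fold change 0.92 ± 0.16 (SE), edgeR adjusted p = 0.0017) and Postn, a matrix protein of mesenchyme (log2 fold change 0.34 ± 0.06 (SE), edgeR adjusted p = 0.00228), rose without overlap, and the call of Postn was lost in the fit of all 15 libraries (edgeR adjusted p = 0.24).

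Some matrix genes varied widely between teeth of 1 stage. Col1a1, a chain of type I collagen, had 94546, 100287, 49249, 61943 and 130173 normalized counts at E15 and 125677, 203304, 221259, 187351 and 255229 at E17. E17 replicate 1 was below the highest E15 tooth (log2 fold change 1.19 ± 0.24 (SE), edgeR adjusted p = 0.00367). Mmp9, a gelatinase that osteoclasts also make, had 26.6, 30.6, 7.01, 33.0 and 40.2 normalized counts at E15 and 80.9, 294, 270.2, 637 and 328 at E17, without overlap (log2 fold change 3.55 ± 0.48 (SE), edgeR adjusted p = 0.000232). Mmp13, a collagenase, had 7.06, 1.09, 7.01, 1.03 and 4.47 normalized counts at E15 and 22.9, 63.3, 39.9, 409.7 and 69.6 at E17, and E17 replicate 4 was far above the rest (log2 fold change 4.75 ± 0.87 (SE), edgeR adjusted p = 0.00206). Without that library the log2 fold change of Mmp13 was 3.45 (edgeR adjusted p = 0.00096). The broadly made Timp2 (log2 fold change 0.40 ± 0.07 (SE), edgeR adjusted p = 0.00127) and Mmp14 (log2 fold change 0.30 ± 0.08 (SE), edgeR adjusted p = 0.016), a protease inhibitor and a membrane protease, changed less.

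E17 replicate 4 was also the highest and E17 replicate 1 the lowest E17 tooth for Spp1, a bone matrix protein, at 24.0, 63.3, 117, 661 and 186 normalized counts beside 10.9, 41.5, 0, 8.25 and 27.9 at E15 (log2 fold change 3.61 ± 0.87 (SE), edgeR adjusted p = 0.011). Without E17 replicate 4 the log2 fold change of Spp1 was 2.49 (edgeR adjusted p = 0.0372). Alpl, the alkaline phosphatase of bone, had 3105, 2839, 1657, 1083 and 4276 normalized counts at E15 and 1435, 3569, 3244, 3527 and 3875 at E17 and was not called (log2 fold change 0.28 ± 0.33 (SE), edgeR adjusted p = 0.606). Of the bone list 4 of 17 genes had a row, 1 was higher, beside 11.3% of all genes, and their sums overlapped, at 7482 to 12122 normalized counts (E15) and 5626 to 11150 (E17). Of the osteoclast list 3 of 16 genes had a row, and 2 of the 3 were higher, beside 11.3% of all genes. The 2 were Mmp9 and the proton pump subunit Tcirg1 (log2 fold change 0.38 ± 0.09 (SE), edgeR adjusted p = 0.00733). The sums of the 3 genes were 445 to 550 normalized counts (E15) and 668 to 1253 (E17). The call of Tcirg1 was lost in the fit of all 15 libraries (edgeR adjusted p = 0.0703). Csf1, the growth factor on which osteoclast precursors depend, rose from 564 ± 82.8 to 839 ± 66.1 (SD, n = 5; log2 fold change 0.58 ± 0.10 (SE), edgeR adjusted p = 0.00151). The study lists Csf1 among genes needed for tooth eruption, a class that it left out of its comparisons. The part of adjoining bone in the changes of the matrix genes was not tested.

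The aquaporins, water channels of the dispensable category, were higher in 4 of 4 tested, beside 11.3% of all genes and 39 of 88 tested dispensable genes. Aqp3, which also carries glycerol, had 64.7, 57.8, 46.7, 13.4 and 21.2 normalized counts at E15 and 365, 298, 261, 338 and 308 at E17, a 7.5-fold rise (log2 fold change 2.91 ± 0.31 (SE), edgeR adjusted p = 3.41e-05). Aqp1 (log2 fold change 0.97 ± 0.17 (SE), edgeR adjusted p = 0.00129) and Aqp4 (log2 fold change 1.09 ± 0.21 (SE), edgeR adjusted p = 0.00277) also rose without overlap. The scarce Aqp9, another carrier of glycerol, had 2.72, 0, 0, 9.28 and 3.35 normalized counts at E15 and 56.8, 71.2, 29.1, 61.0 and 18.8 at E17, all above E15 (log2 fold change 3.88 ± 0.64 (SE), edgeR adjusted p = 0.000994), and without E15 replicate 4 the log2 fold change was 4.69 (edgeR adjusted p = 0.000784). Of 7 axon guidance genes 2 were higher and 0 lower, beside 11.3% and 7.02% of all genes, and the 2 were Slit1 (log2 fold change 1.17 ± 0.24 (SE), edgeR adjusted p = 0.00418) and Sema3b (log2 fold change 0.95 ± 0.23 (SE), edgeR adjusted p = 0.0122). Of 5 tested genes of enamel and dentin products 2 were higher, beside 11.3% of all genes, Fam20c (log2 fold change 0.94 ± 0.17 (SE), edgeR adjusted p = 0.00174) and Fam20a (log2 fold change 0.88 ± 0.22 (SE), edgeR adjusted p = 0.0133), a secretory kinase and its partner. Of 17 tested enamel knot genes 8 were higher and 1 lower, beside 11.3% and 7.02% of all genes. The Wnt ligand Wnt10a, a shape gene, rose from 121 ± 15.6 to 302 ± 26.7 (SD, n = 5; log2 fold change 1.33 ± 0.12 (SE), edgeR adjusted p = 8.33e-06). The gene that fell was the ligand Bmp2, also a shape gene, without overlap (log2 fold change -0.45 ± 0.11 (SE), edgeR adjusted p = 0.0115).

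Of the genes whose symbols were not known here, the largest 2 rises and 2 falls among called genes with at least 100 normalized counts in the higher stage and no overlap are given by identifier. ENSMUSG00000044041 had 54.9, 21.8, 12.9, 4.13 and 27.9 normalized counts at E15 and 3630, 2557, 2444, 2738 and 3531 at E17 (log2 fold change 6.75 ± 0.33 (SE), edgeR adjusted p = 9.71e-08). ENSMUSG00000033730 rose from a mean of 10.9 to 413.9 (log2 fold change 5.23 ± 0.31 (SE), edgeR adjusted p = 3e-07). ENSMUSG00000040113 fell from 124 ± 41 to 9.57 ± 12.2 (SD, n = 5; log2 fold change -3.72 ± 0.56 (SE), edgeR adjusted p = 0.00054), and ENSMUSG00000055609 from 139 ± 79 to 22.2 ± 12.5 (log2 fold change -2.63 ± 0.54 (SE), edgeR adjusted p = 0.00429).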

How the data were processed

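RNA of single first molar germs was sequenced (5 libraries at E15 and 5 at E17). The authors filtered reads with FastQC, AfterQC and Trimmomatic and mapped the filtered reads to rat build Rnor_6.0 by STAR, and they deposited whole-number counts per rat Ensembl gene from HTSeq (32883 genes). They also deposited expected counts from salmon under mouse Ensembl identifiers (14185 genes), written as whole numbers. Neither table is normalized, and whether counting used the strand is not given in the sources used here, so overlapping, antisense and near-identical genes are uncertain. Totals were 12843183 to 26516722 (HTSeq) and 11814893 to 24109716 (salmon) per library. The 0 remaining columns of other samples were not used, and the E18 libraries entered only 1 alternative.

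Stages were compared with the quasi-likelihood test of edgeR 4.0.16 (R 4.3.3; limma 3.58.1) after filterByExpr and TMM scaling, and p-values were adjusted over all genes tested by Benjamini-Hochberg (threshold 0.05). Standard errors were derived from the F statistic. Normalized counts are counts divided by median-ratio size factors. DESeq2 1.42.0, other scalings and filters, each library left out, both teeth of 1 embryo summed and tooth side as a covariate were tried. The procedure was tested on simulated data. Nothing says that the libraries of a stage came from separate litters, so p-values measure the spread between these teeth.

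Symbols came from 399 pairs of symbol and identifier of the study, of which 356 had a row. Genes named outside the progression, shape, double, tissue and dispensable categories were the 15 largest rises and 15 largest falls with an adjusted p under 0.05, a mean of at least 100 normalized counts in the higher stage and no overlap between stages (15 and 6 genes met this). For each list the 4 called members with the smallest adjusted p were also named. Members and lists were chosen with earlier results of these data known. Of 42 lists, 17 had no tested member with a symbol and 6 had 1 or 2, among them those for vessels, blood, macrophages, muscle, cartilage, nerve and proliferation, which were therefore not read. A few list members are not reported here and were left out of the counts of their lists.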

Additional observations from a re-analysis of the deposited data

Results flagged for a closer look

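Outlying libraries were sought in 162 groups of 5 libraries, from most of the genes given values and from 5 measures per library. In 13 groups the gap of 1 library to the nearest other exceeded 0.71 of the range of its group. Chance flags about 1 in 20 groups, or 8.1. E15 replicate 3 was flagged 3 times, for Sostdc1 (3344 normalized counts, the other E15 teeth at 1180 to 1454), Sfrp5 (52.6, others 144 to 175) and Tcirg1 (332, others 402 to 423). E17 replicate 4 was flagged 4 times and always as the highest, for Mmp13 (409.7 normalized counts, others 22.9 to 69.6), Spp1 (661, others 24.0 to 185.5), Dkk4 (186, others 130.3 to 141) and Jag1 (3561, others 3187 to 3245). E15 replicate 2 was the lowest E15 tooth for Axin2 (1670 normalized counts) and Fam20a (74.2). E17 replicate 1 was the lowest E17 tooth for Alpl (1435 normalized counts). E17 replicate 5 was the lowest E17 tooth for Smad4 (1386 normalized counts). The total counts of E15 replicate 1 (26516722) and E17 replicate 3 (17803352) were above those of the other libraries of their stages.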

How the results depend on the processing

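The number of called rat genes was between 2091 and 3266 under the 17 alternatives beside 2749, and the count of salmon genes was between 1746 and 2881 beside 2315 with the 10 libraries (1429 higher, 886 lower). With all 15 libraries in 1 fit it was 1514, with 1160 higher (76.6% of the calls) and 354 lower. Of the 2749 calls 1644 (1122 higher, 522 lower) held in every setting and 1794 (65.3%) in every fit that left out 1 library, and none of them changed direction in any setting. Higher genes were 59.0 to 67.7% of the rat calls in every alternative and 56.3 to 66.8% of the salmon calls in the alternatives with 10 libraries, and the scalings tried left the median log2 fold change of all genes between -0.02 and -0.01. The ratio of the spread at E15 to that at E17 was 1.38, 1.41 with at least 100 normalized counts, and 0.993 (without E15 replicate 3) to 1.56 (without E17 replicate 4) when 1 library was left out. Of the 15 rises named by rule 12 kept their calls in all 18 salmon alternatives, and of the 6 falls 1 did (Tle1). Without the fit of all 15 libraries, 13 rises and 3 falls kept theirs. The causes were not tested. No paired analysis was possible because replicate numbers follow the order of deposit and pair no teeth across stages. The lists and named genes were not run in the HTSeq table, whose rat identifiers were not joined to symbols here. Depth and the spread between 5 teeth limit the scarce genes, whose median standard error was 0.30 at 10 to 100 normalized counts.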
